A study of Mus musculus with 3 samples.

Results

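The transcripts described here are those of 9 chemokine genes, 8 of the CXC class and Cx3cl1 of the CX3C class, out of 56833 genes in the deposited expression table. They were taken by name (Cxcl1, Cxcl2, Cxcl3, Cxcl5, Cxcl9, Cxcl12, Cxcl14, Cxcl16 and Cx3cl1), and all 9 were found. The cells came from ankle synovium, the tissue lining the joint, of Efhd1CreER; Ai9 mice, in which the Efhd1 promoter drives an inducible Cre that switches on the red reporter tdTomato. Cells positive for tdTomato, called telocytes in the labels, were sorted and kept for 24 h on collagen-coated plates whose stiffness was 0.2 kPa, 8 kPa or 64 kPa, here called soft, intermediate and stiff. All 3 groups therefore shared genotype, sort, collagen coating and culture time and differed in plate stiffness. Tissue of up to 2 synovia was digested in a tube, and the age, sex and number of mice are not given in the sources used here.

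Each level had 1 library. No value below therefore carries a replicate check, and a difference between cultures cannot be told apart from one between stiffness levels. The libraries held 25487064 (soft), 28081600 (intermediate) and 26474862 (stiff) gene reads. Values are normalized counts, in which each read is divided by a size factor of its library and is worth 1.03, 0.943 and 1.03 in that order. Log2 ratios use a pseudocount of 1. For each pair of libraries, the counting interval comes from the exact 95% Clopper-Pearson bounds on how a gene's reads divide between them, and it covers counting error only. Of the marker lists, all 10 fibroblast genes were present. Between stiff and soft 5 of them were above 0 (51.1% of all genes tested) and 5 below, from -0.52 for Fap to 0.95 for Col1a1. Of the mural markers whose mean reached 10, 2 were above 0 and 2 below, and of the endothelial ones 3 and 2. The label gene Efhd1 had 10, 5 and 3 reads and the telocyte marker Kit 42.0, 38.7 and 45.1 normalized counts, soft to stiff, whereas Pdgfra, shared by fibroblasts and telocytes, had 5884, 6298 and 5118. Of the other telocyte markers, Cd34 had 235, 242 and 318 normalized counts (stiff to soft log2 ratio 0.44, counting interval 0.19 to 0.69) and Foxl1 had 238, 233 and 186 (-0.36, interval -0.65 to -0.07). All 12 macrophage markers had reads, and their summed level was 29749 (soft), 36633 (intermediate) and 63852 (stiff). Neutrophil markers other than S100a8 and Camp were at or near 0, and 6 of 10 lymphocyte markers, Cd3e among them, had no read. Trac, a T cell receptor gene and the only lymphocyte marker with a mean of at least 10, had 7, 19 and 29 reads, a stiff to soft log2 ratio of 1.91 (counting interval 0.83 to 3.49).

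Chemokines are small secreted or membrane-anchored proteins that direct the movement of leukocytes through G protein-coupled receptors, and the class names describe the spacing of the first conserved cysteines. Cxcl1, Cxcl2, Cxcl3 and Cxcl5 carry a glutamate-leucine-arginine motif ahead of the cysteines and attract neutrophils through Cxcr2. Cxcl12 and Cxcl14 are made without inflammation by many stromal cells, while Cxcl9 is a classical target of interferon gamma. Cxcl16 and Cx3cl1 are made as membrane proteins that proteases can shed. In inflamed joints, synovial fibroblasts and macrophages are known sources of several of these ligands.

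Of the neutrophil attractants, 3 are close paralogs, and their upstream sequences are shown because Cxcl2 and Cxcl3 moved together across the plates while Cxcl1 did not. The 120 bases before the annotated start were read 5′ to 3′ from the RefSeq promoter table of build GRCm38.p6, at chr5:90891125-90891244 (Cxcl1), chr5:90903779-90903898 (Cxcl2) and chr5:90785981-90786100 (Cxcl3), all on the plus strand. Capitals mark matches to the NF-kappaB consensus, found on both strands as overlapping matches, and to TATAAA.

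Cxcl1: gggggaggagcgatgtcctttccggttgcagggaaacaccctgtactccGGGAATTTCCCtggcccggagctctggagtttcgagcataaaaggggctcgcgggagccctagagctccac

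Cxcl2: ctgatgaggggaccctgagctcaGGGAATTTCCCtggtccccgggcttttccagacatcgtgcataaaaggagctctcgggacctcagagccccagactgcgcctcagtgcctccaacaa

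Cxcl3: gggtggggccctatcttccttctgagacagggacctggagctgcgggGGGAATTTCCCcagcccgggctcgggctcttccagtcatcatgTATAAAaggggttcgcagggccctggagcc

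The same 11 letters in capitals, which join a match on each strand offset by 1 base, began 71 bases before the start in Cxcl1, 97 in Cxcl2 and 73 in Cxcl3. NF-kappaB is the transcription factor family through which interleukin-1 and TNF induce many chemokines. RefSeq promoters were matched for 7 of the 9 members, Cxcl5 and Cxcl16 being the other two. Over the 250 bases before the start, 3 of these 7 had a match to the NF-kappaB consensus, against 3.90% of 32851 promoters searched in the same way. All 3 were the paralogs Cxcl1, Cxcl2 and Cxcl3 with the same 11 letters, so they are not independent cases, and the other members searched had none. The AP-1 motif TGANTCA had a match in 0 of 7 (6.75% of all promoters) and the CArG box, bound by SRF, in 0 of 7 (1.47% of all). The motif GGAATG, bound by TEAD factors, was found in Cxcl3 alone (12.6% of all). TATAAA was found in Cxcl3, Cxcl9 and Cx3cl1 (12.4% of all). These are matches of letters and were not tested for binding.

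The 120 bases upstream of Cxcl9 (GRCm38.p6, chr5:92328080-92328199, minus strand) and of Cxcl12 (chr6:117168415-117168534, plus strand) are given for comparison, since these genes had the largest log2 difference at the intermediate level and the largest gain in counts at the stiff level, and neither window holds a match to the motifs named above.

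Cxcl9: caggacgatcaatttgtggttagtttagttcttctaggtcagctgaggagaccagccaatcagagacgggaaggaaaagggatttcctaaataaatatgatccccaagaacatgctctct

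Cxcl12: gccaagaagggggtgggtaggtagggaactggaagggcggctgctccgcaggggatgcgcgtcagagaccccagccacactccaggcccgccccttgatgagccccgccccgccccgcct

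Across the 9 genes the differences between the libraries were mixed. Cxcl2, Cxcl3, Cxcl12 and Cxcl16 were highest on the stiff plate, Cxcl1, Cxcl5, Cxcl9 and Cx3cl1 on the intermediate plate, and Cxcl14 on the soft plate. All 9 members had a mean of at least 50 normalized counts, the minimum that 11873 genes met. Between stiff and soft, 0 of 9 members reached a log2 ratio of 1 in either direction, against 3.6% of all genes tested. At a ratio of at least 0.5, 3 of 9 were higher on the stiff plate (Cxcl2, Cxcl3 and Cxcl12), against 11.8% of all genes tested. Between intermediate and soft, 0 of 9 reached 1 in either direction (0.168% of all genes) and only Cxcl9 was higher by at least 0.5 (3.94% of all). Between stiff and intermediate, Cxcl9 alone was past 1, against 1.25% of all genes in either direction and 0.421% in its direction, lower. At 0.5, Cxcl2, Cxcl3 and Cxcl12 were higher on the stiff plate (5.42% of all genes) and Cxcl9 was lower (3.42% of all). Of these, Cxcl2 was at 0.48 and 0.497 with scaling by total reads and by the upper quartile, and Cxcl12 at 0.48 with the length and GC trend subtracted, all below 0.5.

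**Figure D1:**
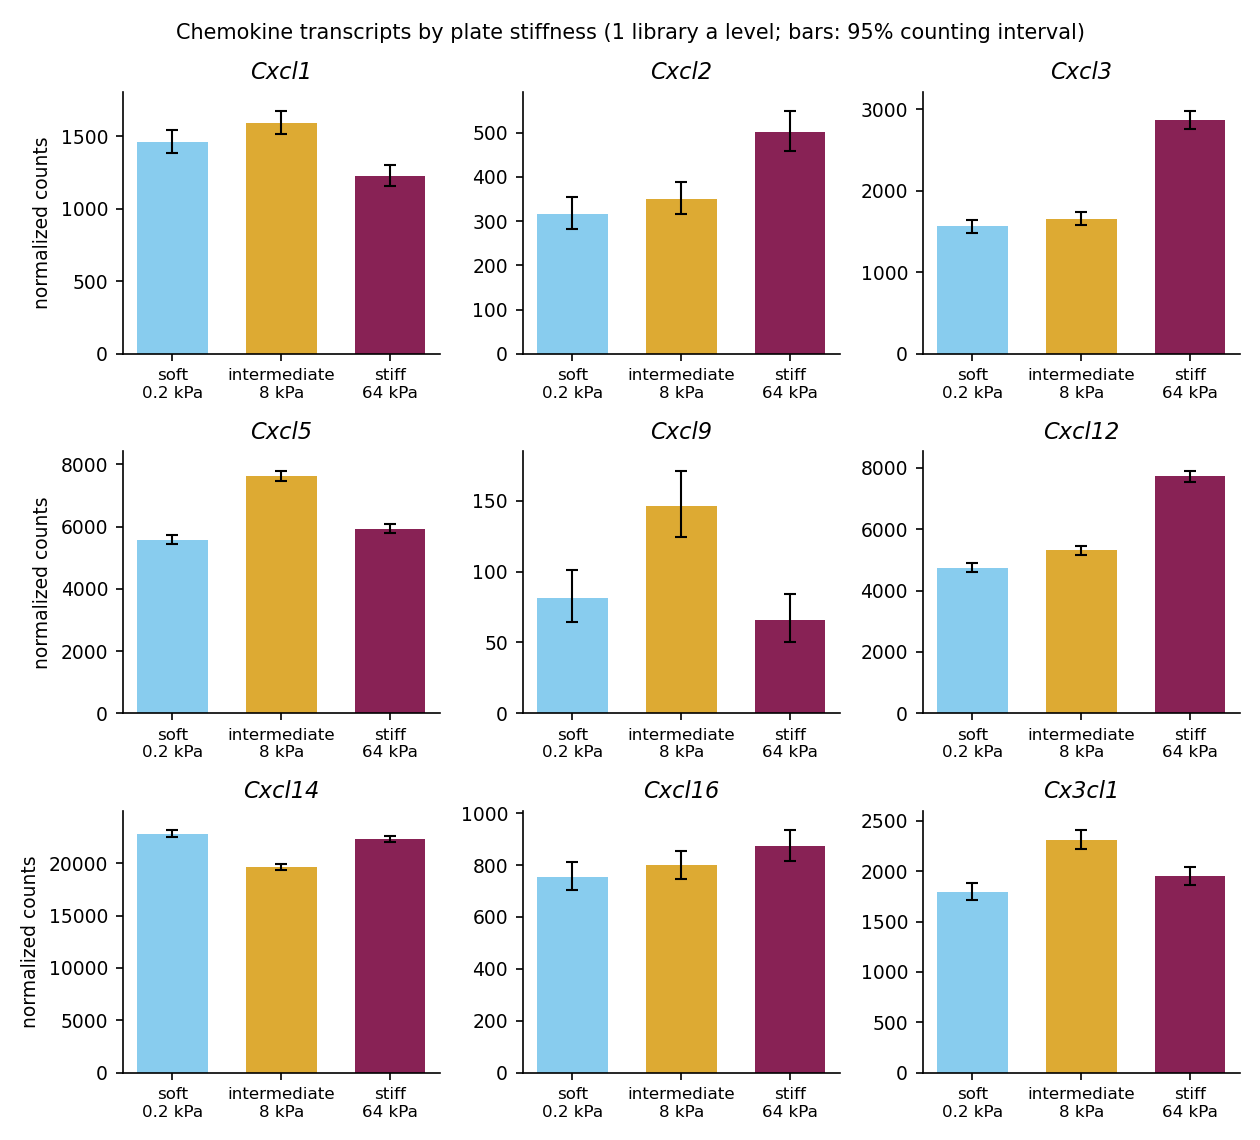
Normalized counts of the 9 chemokine genes in the soft, intermediate and stiff library, each panel with its own axis from 0; each bar is 1 library and the black line its exact 95% Poisson counting interval. Cxcl3 goes from 1564 to 2868 and Cxcl12 from 4749 to 7729 between soft and stiff, while Cxcl5, Cx3cl1 and Cxcl9 are highest at 8 kPa.

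The neutrophil attractants lie in a cluster on chromosome 5 and have 4 exons each. Positions are those of build GRCm39. Cxcl3 (90933962 to 90937459, plus strand) had 1564 normalized counts on the soft plate, 1661 on the intermediate plate and 2868 on the stiff plate. The soft and intermediate libraries were close, and the stiff library stood above both. The stiff value was 1.83 times the soft value, a log2 ratio of 0.87 with a counting interval from 0.78 to 0.97, and 4.43% of all genes tested had a higher ratio. The interval of the intermediate to soft ratio, 0.09, ran from -0.01 to 0.19, so no difference was detectable there at this depth.

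Cxcl2, at 91051730 to 91053797 on the plus strand, had 317 (soft), 349.7 (intermediate) and 501 (stiff) normalized counts. It followed the order of Cxcl3 at a lower level, with the stiff library again above the others. Its stiff to soft log2 ratio was 0.66 (counting interval 0.45 to 0.87), a step that lay mostly between intermediate and stiff, at 0.52 (0.32 to 0.72). Transcripts of Cxcl2 and Cxcl3 were 90.1% identical over 354 aligned bases and shared an identical run of 110 bases. How reads that fit both genes were counted is not given in the sources used here, so their separate counts are uncertain.

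Cxcl1, at 91039094 to 91040974 on the plus strand, had 1463, 1594 and 1229 normalized counts. Here the stiff library was the lowest, opposite to both paralogs. Its stiff to soft log2 ratio was -0.25 (counting interval -0.36 to -0.14) and its stiff to intermediate ratio -0.38 (-0.48 to -0.27). The transcript of Cxcl1 was 78.1% identical to that of Cxcl2 over 347 bases and 76.1% to that of Cxcl3 over 330 bases, with an identical run of at most 23 bases in both cases. The counting intervals of Cxcl1 and of Cxcl3 lay on opposite sides of 0 in the stiff to soft comparison.

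Cxcl5, at 90907186 to 90909483 on the plus strand, was the most abundant of the neutrophil attractants per kb of transcript. Its normalized counts were 5587 (soft), 7626 (intermediate) and 5936 (stiff). The intermediate library stood above the other two, which were close to each other. The intermediate to soft log2 ratio was 0.45 (counting interval 0.40 to 0.50), with 5.23% of all genes tested higher, and the stiff to soft ratio was 0.09 (0.03 to 0.14).

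Ppbp and Pf4, chemokines best known from platelets, lie between Cxcl5 and Cxcl3 in the same cluster and are not among the 9 members. Pf4 had 4794, 5252 and 7553 normalized counts and Ppbp 1233, 1289 and 1838, soft to stiff. Both were thus highest in the stiff library, with stiff to soft log2 ratios of 0.66 (counting interval 0.60 to 0.71) and 0.57 (0.47 to 0.68). Cxcl15, the next gene after Cxcl3, had 5, 4 and 5 reads. Along the chromosome, the 3 adjacent genes Ppbp, Pf4 and Cxcl3 and, farther along, Cxcl2 were higher on the stiff plate, while Cxcl5 at the start of the cluster had a ratio near 0 and Cxcl1, next to Cxcl2, was lower.

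**Figure D2:**
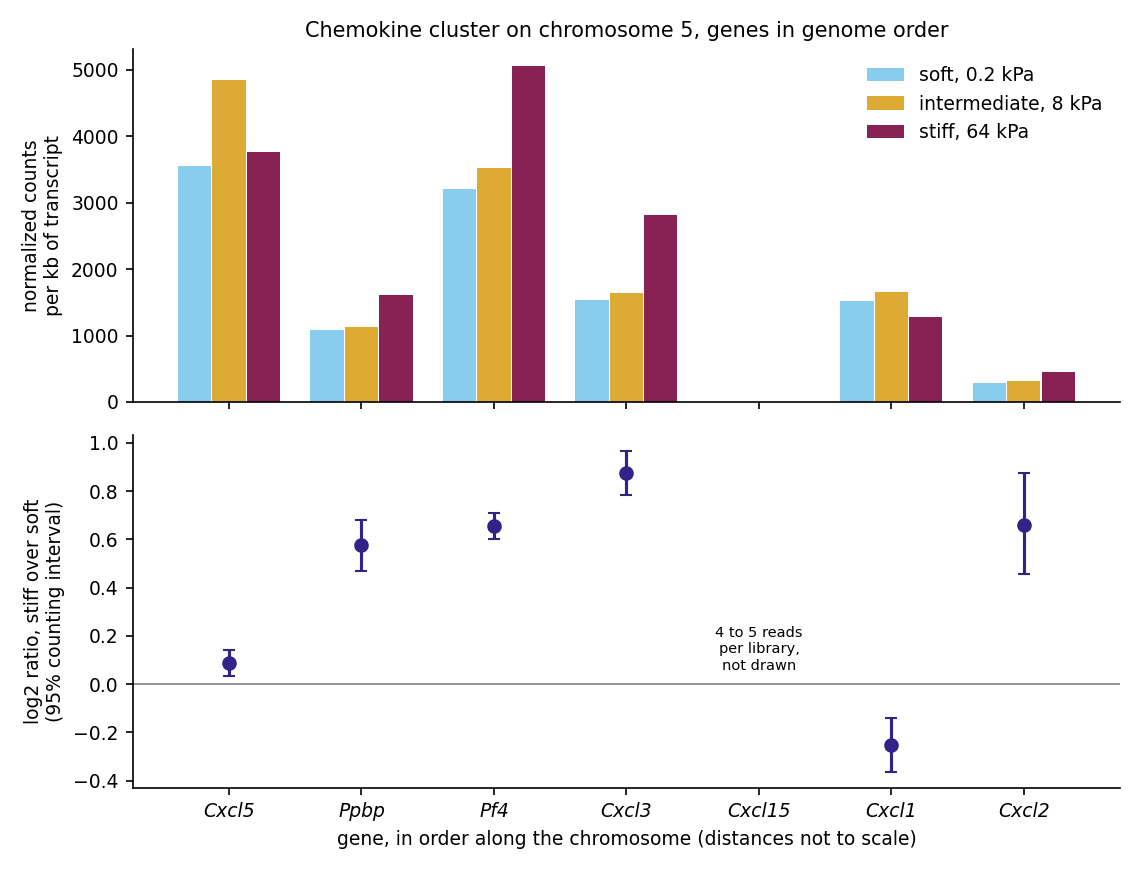
Upper panel, normalized counts per kb of canonical transcript for the 7 genes of the chromosome 5 cluster in genome order, by library; lower panel, log2 ratio of stiff to soft with its 95% counting interval. Ppbp, Pf4, Cxcl3 and Cxcl2 lie between 0.57 and 0.87, Cxcl5 at 0.09 and Cxcl1 at -0.25.

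Macrophages are known sources of several of the 9 ligands, and macrophage transcripts differed between the same libraries. Between stiff and soft, the members themselves ran from -0.30 for Cxcl9 and -0.25 for Cxcl1 to 0.87 for Cxcl3. All 12 macrophage markers were higher in the stiff than in the soft library, 9 of them by a log2 ratio of at least 1 (3.22% of all genes tested were higher by that much), with a list median of 1.25 against 0.0049 over all genes tested. The ratios ran from 0.31 for Cd14 to 1.49 for C1qa, and Lyz2 had 18362, 21482 and 39173 normalized counts. Between stiff and intermediate, Mrc1 alone of the 12 reached 1 (0.825% of all genes). Neutrophil markers showed no such gain: S100a8 had 215, 207 and 202 normalized counts, while S100a9 and Ly6g had no read. In a bulk library a larger number of cells of a type and more RNA per cell cannot be told apart. The part of macrophage transcripts in the values of the chemokines was not tested.

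Cxcl12, at 117144945 to 117158328 on the plus strand of chromosome 6, binds Cxcr4 and the scavenging receptor Ackr3 and retains blood progenitors and lymphocytes in stromal niches. Its normalized counts were 4749 (soft), 5311 (intermediate) and 7729 (stiff). Each level was above the one before, with the larger step between intermediate and stiff. The log2 ratios were 0.70 for stiff to soft (counting interval 0.65 to 0.76), 0.16 for intermediate to soft (0.11 to 0.22) and 0.54 for stiff to intermediate (0.49 to 0.59). In the stiff to soft comparison, 6.99% of all genes tested had a higher ratio.

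A list of 9 regulators known to act on Cxcl12 was set beside it. The list was not divided by whether a gene raises or lowers Cxcl12, so its median carries no expected direction. Their action on Cxcl12 in these cells was not tested. The median stiff to soft log2 ratio of the list was 0.33, with 8 of 9 genes above 0 (51.1% of all genes tested) and 1 below, and none reached 1 (3.6% of all). Tgfb3, a TGF-beta ligand, had the highest ratio, at 0.68, with 987, 1132 and 1584 normalized counts. Cebpb, an inducible transcription factor, had 2747 (soft), 3411 and 4146, a ratio of 0.59. Hif1a, the hypoxia factor, had 7212, 7048 and 7012, a ratio of -0.04. Ebf1, a stromal transcription factor, had a ratio of 0.24 and Foxc1 of 0.44. With the length and GC trend subtracted, Foxc1 was at 0.09, Hif1a at 0.07, Ebf3 at -0.05 and Tgfb1 at -0.03, the latter 3 with a change of sign.

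Cxcl14, at 56436352 to 56444603 on the minus strand of chromosome 13, had the most reads of the 9. Its receptor is not settled. Soft to stiff, its normalized counts were 22822, 19653 and 22289. The soft and stiff libraries were nearly level and the intermediate library was the lowest. The intermediate to soft log2 ratio was -0.22 (counting interval -0.24 to -0.19), with 6.02% of all genes tested lower, and the stiff to soft ratio was -0.03 (-0.06 to -0.01). Cxcl14 was the only member whose intermediate value was below its soft value.

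Among the membrane-anchored ligands, Cx3cl1, also named fractalkine, carries its chemokine domain on a mucin stalk and binds Cx3cr1. The gene lies at 95498637 to 95509055 on the plus strand of chromosome 8 and has 3 exons. Soft to stiff, it had 1798, 2312 and 1955 normalized counts. The intermediate library was the highest and the soft and stiff libraries were close. The intermediate to soft log2 ratio was 0.36 (counting interval 0.27 to 0.45) and the stiff to soft ratio 0.12 (0.03 to 0.21). With the trend of ratios with transcript length and GC content subtracted (described below), the latter turned to -0.09.

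Cxcl16, at 70344517 to 70352620 on the minus strand of chromosome 11 with 5 exons, binds Cxcr6 and also takes up oxidized lipoprotein. It had 756, 799 and 873 normalized counts, soft to stiff. The gain over the plates was small, with a stiff to soft log2 ratio of 0.21 (counting interval 0.06 to 0.35), and neither single step was detectable at this depth. Exons of Med11 and Zmynd15, on the opposite strand, overlap exons of Cxcl16 by 2213 and 2132 bases. Med11 had 349, 407 and 399 reads and Zmynd15 had 9, 16 and 23, soft to stiff. The libraries were stranded, but the strand setting of the counting is not given in the sources used here, so reads of these genes and of Cxcl16 may not be fully separated. Unlike these, the genes Gm72413 and 1700121C10Rik, whose exons overlap those of Cxcl5 by 523 bases and of Cx3cl1 by 427 bases on the opposite strand, were not analysed here.

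Adam10 and Adam17, the proteases best known for shedding both membrane-anchored ligands, were nearly level across the plates. Adam10 had 5258, 5357 and 5280.3 normalized counts, a stiff to soft log2 ratio of 0.01 (counting interval -0.05 to 0.06). Adam17 had 2559.9, 2783 and 2567, a ratio of 0.00 (-0.08 to 0.08). Rhbdf2, a cofactor that matures Adam17, had 271, 383 and 444, a ratio of 0.71. The shedding and trimming list had 13 of 16 genes whose mean reached 10, of which 9 were above 0 (51.1% of all genes tested) and 4 below between stiff and soft, and the median ratio was 0.02.

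Among the matrix and trimming proteases of the list, ratios ran in both directions. Mmp14 and Mmp2, membrane and secreted metalloproteases, had stiff to soft log2 ratios of 0.02 and 0.16. Mmp13, a collagenase, had 18731, 20166 and 9233 normalized counts and a stiff to soft log2 ratio of -1.02. Cpm, a membrane carboxypeptidase that trims basic residues from peptide ends, had 202, 199.9 and 81.0, a ratio of -1.31. These were the only genes of the list past 1, in the direction in which 0.387% of all genes were called. Mmp9, a gelatinase, had 917, 769 and 479, a ratio of -0.93. Mmp8, a neutrophil-type collagenase, had 1411, 1857 and 2428, a ratio of 0.78. Timp3, an inhibitor of Adam17, had 14496, 13446 and 22164, a ratio of 0.61. Dpp4, which inactivates Cxcl12, had 1, 0 and 2 reads. With the length and GC trend subtracted, Cpm remained past 1, Mmp13 was at -0.87 and Mmp9 at -1.04, while Rhbdf2 was at 0.45, Mmp2 at 0.04 and Mmp14 at -0.07.

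Cxcl9, at 92469206 to 92475945 on the minus strand of chromosome 5, binds Cxcr3 on activated T cells and was the least abundant member per kb. It had 79 reads (81.0 normalized counts) on the soft plate, 155 (146) on the intermediate plate and 64 (65.6) on the stiff plate. The intermediate library was above both others, which did not differ detectably at this depth. The stiff to intermediate log2 ratio was -1.14 (counting interval -1.60 to -0.73), and 0.295% of all genes tested were lower. The intermediate to soft ratio was 0.84 (0.45 to 1.26), with 0.480% of all genes higher, and the stiff to soft ratio -0.30 (-0.80 to 0.19).

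The interferon gamma axis, of which Cxcl9 is a downstream gene, was examined in a list of 18 genes, of which 16 reached a mean of 10. Between stiff and intermediate 14 of the 16 were below 0 and 2 above (51.1% of all genes tested were above), with a median log2 ratio of -0.20 against 0.0061 over all genes tested, and none reached 1. Between intermediate and soft 13 were above 0 (53.5% of all genes) and 3 below, with a median of 0.19 against 0.012. Gbp2, an interferon-induced GTPase, had 507, 859 and 538 normalized counts, highest on the intermediate plate as Cxcl9 was. Irgm2, another such GTPase, had 870.4, 1038 and 653. Gbp5 was the only gene of the list past 1. It was higher by 1.33 between intermediate and soft, as were 0.16% of all genes, and by 1.11 between stiff and soft, as were 3.22% of all genes, and had 44, 122 and 96 reads. The receptor genes were nearly level, with stiff to soft ratios of 0.06 for Ifngr1 and -0.07 for Ifngr2. Ciita, which drives class II antigen presentation, had no read.

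Cxcl10, a neighbour of Cxcl9 that shares its receptor and its induction by interferon, did not share its pattern. It had 60, 34 and 37 reads in the soft, intermediate and stiff library and was highest on the soft plate. The intermediate to soft log2 ratio of Cxcl10 was -0.92 (counting interval -1.59 to -0.31), at a mean below the minimum of 50. Its stiff to intermediate ratio, 0.24 (-0.47 to 0.96), showed no difference detectable at this depth. Cxcl11, which also binds Cxcr3, had 0, 0 and 2 reads.

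**Figure D3:**
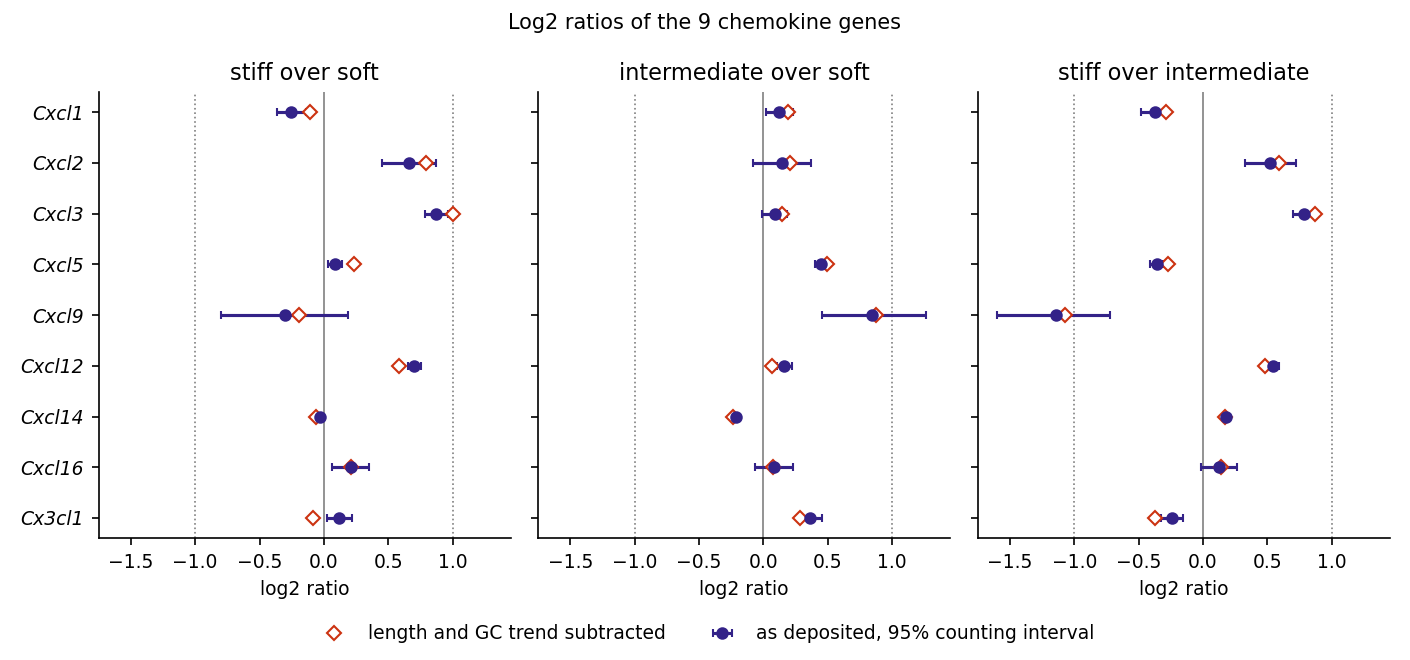
Log2 ratios of the 9 chemokine genes for the 3 pairs of libraries; filled circles with 95% counting intervals are the ratios as deposited, open diamonds the ratios after the length and GC trend was subtracted, and dotted lines mark -1 and 1. Cxcl9 alone passes a dotted line as deposited (-1.14, stiff over intermediate), and Cxcl3 reaches the line between stiff and soft (1.003) after the subtraction.

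Levels were compared between genes per kb of the Ensembl canonical transcript. In normalized counts per kb, Cxcl14 was the highest in every library, at 7810.3, 6726 and 7628 soft to stiff, followed by Cxcl5 at 3547, 4842 and 3769. Cxcl3 (1539.8) and Cxcl1 (1525) were next on the soft plate, and their counting intervals overlapped there and on the intermediate plate. On the stiff plate Cxcl3 stood alone at 2823, while Cxcl12 (1363) and Cxcl1 (1281) had overlapping intervals. Cxcl12 stood below Cxcl1 on the other plates, at 838 and 937. Cx3cl1 followed at 542, 697 and 589.6. Cxcl2 and Cxcl16 came next, with 285 and 253 on the soft plate, where their intervals overlapped, and 451 and 292 on the stiff plate, where they did not. Cxcl9 was the lowest throughout, at 28.0, 50.5 and 22.7.

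The place of Cxcl12 in this order depends on the transcript used. Its 6 annotated coding transcripts span 576 to 5669 bases, of which the canonical is the longest, and the mean level per kb would be 1046 with the longest and 10295 with the shortest. For Cx3cl1 the corresponding values are 609 and 3534 per kb, and for Cxcl14 they are 7388 and 11669. Cxcl2 has a longer coding transcript of 1859 bases, with which its mean level per kb would be 209, below the 271 of Cxcl16. Cxcl1, Cxcl3, Cxcl5 and Cxcl16 have 1 annotated coding transcript each.

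As a share of the summed level per kb of the 9 members, Cxcl14 made up 47.7% on the soft, 39.3% on the intermediate and 41.9% on the stiff plate. The share of Cxcl5 was 21.7%, 28.3% and 20.7%, so the intermediate plate had the highest Cxcl5 and the lowest Cxcl14 share. Cxcl3 made up 9.41%, 9.54% and 15.5%, and Cxcl12 5.12%, 5.47% and 7.48%. These shares rest on canonical transcripts. With a shorter coding transcript of Cxcl12 its share would be larger and those of the others smaller. The 9 genes together took 0.150%, 0.149% and 0.160% of all reads, soft to stiff.

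Of 9 receptor genes listed, 3 had no read and only Gpr35 reached a mean of 50 normalized counts. Cxcr1 and Cxcr2, the receptors of the neutrophil attractants, and Cx3cr1, the receptor of Cx3cl1, had 0 reads in all 3 libraries. At a count of 0 a level of up to 3 reads, or 3.08, 2.83 and 3.08 normalized counts soft to stiff, remains possible. Cxcr4 had 22, 37 and 36 reads, with a stiff to soft log2 ratio of 0.69 whose counting interval, -0.09 to 1.55, included 0. Cxcr6 had 11, 20 and 10 reads and Cxcr3 had 7, 3 and 2. The scavenging receptor Ackr3, which removes Cxcl12, had 652, 664 and 815 normalized counts, with a stiff to soft ratio of 0.32 (0.17 to 0.48). Ackr2, which clears CC chemokines, had 60, 72 and 36 reads and Ackr4 had 21, 5 and 6. Gpr35, a receptor proposed to bind chemokines, had 184, 191 and 196 normalized counts.

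Heparan sulfate chains hold chemokines on cell surfaces and matrix. Of 14 genes that make or edit them, 13 had a mean of at least 10, and between stiff and soft 9 were above 0 (51.1% of all genes tested) and 4 below, with a median log2 ratio of 0.10 and none past 1 (3.6% of all). Sulf2, which removes sulfate groups from the chains, had 1012, 1242 and 1575 normalized counts, a ratio of 0.64, and Sulf1 had 1823, 2254 and 2475, a ratio of 0.44. The chain polymerase Ext1 had 6318, 6604 and 5687, a ratio of -0.15. The highest ratio was 0.78 for Hs3st3b1, at 13.3, 14.1 and 23.6 normalized counts, and the lowest -0.48 for Hs3st1. Their counting intervals, -0.22 to 1.93 and -1.07 to 0.09, both included 0. Subtracting the length and GC trend put Sulf2 at 0.36.

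The inducers of the neutrophil attractants act through interleukin-1, TNF, interleukin-17 and Toll-like receptors. Of 10 such receptor and adaptor genes 5 were above 0 (51.1% of all genes tested) and 5 below between stiff and soft, none past 1 (3.6% of all), with a median log2 ratio of 0.08. Tnfrsf1a, the main TNF receptor, had 8575, 8488 and 8541 normalized counts. Il1r1 had 5983, 5771 and 5299, a ratio of -0.18. The highest ratio was 0.27, for Tnfrsf1b (0.16 with the length and GC trend subtracted), and the lowest -0.18, for Myd88.

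A list of NF-kappaB feedback and chemokine mRNA stability genes holds inhibitors and decay factors as well as activators. Its median log2 ratio between stiff and soft was 0.39, with 11 of 13 above 0 (51.1% of all genes tested) and none past 1 (3.6% of all). Between intermediate and soft all 13 were above 0 (53.5% of all genes), with a median of 0.33 against 0.012 over all genes tested. Tnip1, a partner of the deubiquitinase Tnfaip3, had 441, 648 and 734 normalized counts, a stiff to soft ratio of 0.73. Zfp36, which destabilises chemokine mRNAs, had 1493, 1912 and 2347, a ratio of 0.65. Nfkbiz, a co-activator needed for part of the interleukin-17 response, was the lowest at -0.72 (counting interval -1.01 to -0.44), with 288, 293 and 174. Zc3h12a, an endonuclease acting on chemokine mRNAs, had 532, 766 and 511, highest on the intermediate plate as were Cxcl1 and Cxcl5.

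**Figure D4:**
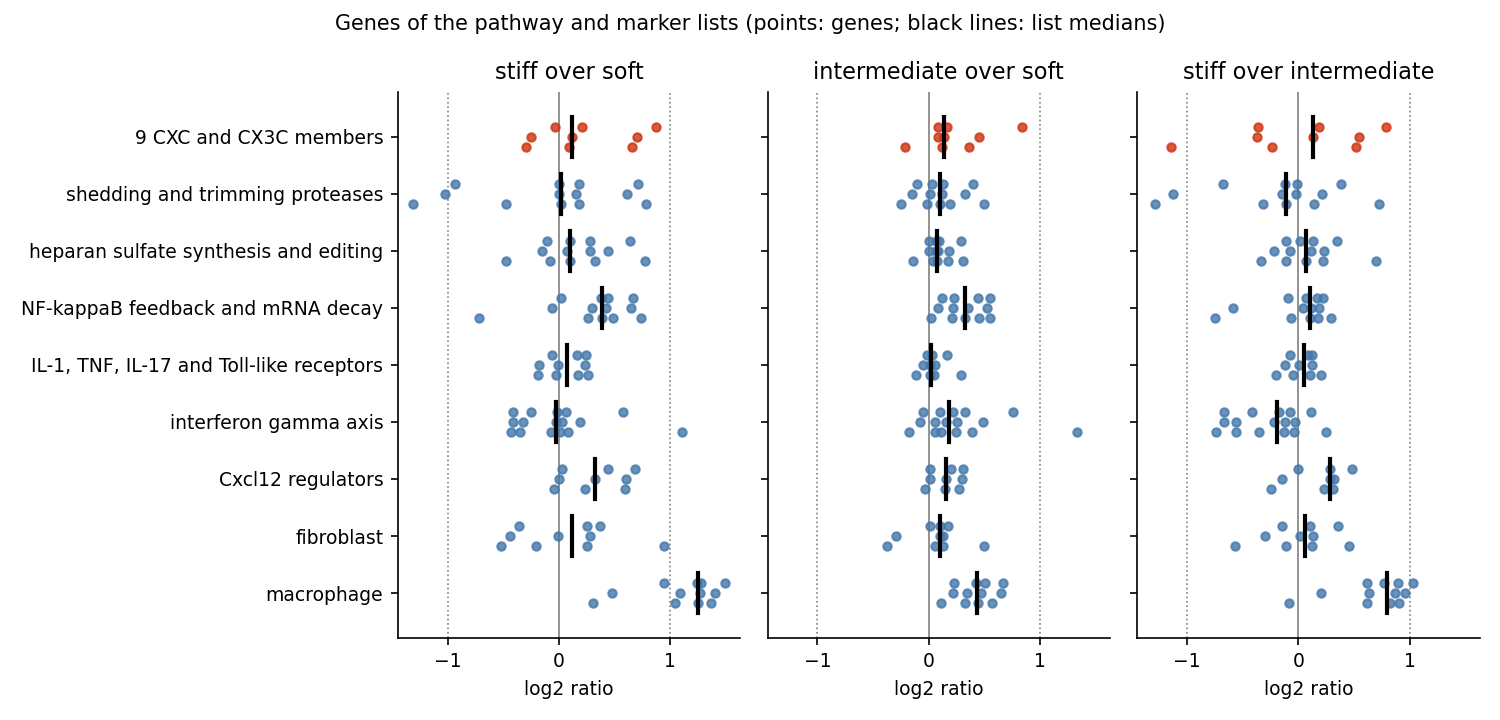
Log2 ratios of the 9 members (red) and of the genes whose mean reached 10 normalized counts in 8 pathway and marker lists (blue) for the 3 pairs of libraries; each point is a gene, black lines are list medians and dotted lines mark -1 and 1. Macrophage markers have the highest median between stiff and soft (1.25) and the interferon gamma list the lowest between stiff and intermediate (-0.20).

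The likeness of members to each other and to other genes was measured as the distance between pairs of log2 ratios (intermediate to soft and stiff to soft), over 3 libraries only. Among members, Cxcl2 and Cxcl12 were the closest, at 0.05, followed by Cxcl5 and Cx3cl1 at 0.09. Cxcl2 and Cxcl3 lay 0.22 apart, and Cxcl1 and Cxcl3 1.13. The distances take no account of counting error. The stiff to soft counting interval of Cxcl2 alone ran from 0.45 to 0.87, so the order of the small distances is uncertain. Of 10629 named genes whose mean reached 100, the one nearest to Cxcl2 was Pf4 (0.01) and the one nearest to Cxcl3 was Clec5a (0.03), a myeloid surface receptor, followed by Tspan9 (0.04) and Actb, an actin (0.04). Lsp1 (0.01) was nearest to Cxcl12, Resf1 (0.01) to Cxcl5, Sntb2 (0.01) to Cxcl1, Hfe (0.004) to Cxcl14, Tyw1 (0.002) to Cxcl16 and Dhx34 (0.02) to Cx3cl1. Within a distance of 0.1 there were 84 genes around Cxcl2, 33 of Cxcl3, 19 of Cxcl5, 83 of Cxcl12 and 966 of Cxcl16. Cxcl9 was below the mean required.

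Ratios of all genes differed with transcript length and GC content, so each member was also set against the median of the 200 genes nearest to it in both. Short, GC-poor transcripts such as those of the neutrophil attractants (959 to 1575 bases, 37.8% to 45.2% GC) had neighbours with medians from -0.15 to -0.13 between stiff and soft, and the 3315-base Cx3cl1 transcript (57.1% GC) had neighbours at 0.21. With this trend subtracted the stiff to soft log2 ratio was 1.003 for Cxcl3, 0.79 for Cxcl2, 0.58 for Cxcl12, 0.23 for Cxcl5, 0.21 for Cxcl16, -0.06 for Cxcl14, -0.09 for Cx3cl1, -0.11 for Cxcl1 and -0.19 for Cxcl9. Cxcl3 then passed a ratio of 1, and 2.12% of genes had a higher value. The stiff to intermediate ratio of Cxcl9 remained past 1, at -1.08. The origin of the trend was not tested.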

How the data were processed

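RNA of 3 stranded poly(A) libraries, 1 per stiffness level, was used. The deposited signal is, by the names the authors gave it, DESeq2 normalized counts: reads of a gene over the size factor of its library. Per the submitters' processing notes, STAR 2.7.9a, featureCounts, Subread 2.0.1 and DESeq2 1.34.0 were used with build GRCm39; the annotation and strand setting are not given in the sources used here. The 3 deposited files were identical, and columns were assigned by sample title. Of the values, 100% were whole multiples (within 0.01) of the smallest positive value of their column, so reads were recovered by division. A count test needs replicates and was not made.

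Genes whose mean reached 50 normalized counts were tested, and list medians used genes whose mean reached 10. The call threshold was a log2 ratio of 1 in size, with 0.5 beside it. The members and lists were chosen with earlier results of these data known. Besides the members, genes past 1, the genes of each list with extreme ratios or the highest mean normalized count, and the 3 genes nearest to each member were eligible for naming; Ppbp, Rhbdf2, Sulf1, Sulf2, Gbp2, Zfp36 and other list genes were named after their values were seen. Positions, lengths and GC contents are those of GENCODE vM39 canonical transcripts, matched by symbol or Ensembl identifier for 98.3% of genes tested, and promoters come from RefSeq (GRCm38.p6). Alternatives were pseudocounts of 0.1 and 10, other minimum means and thresholds, 3 scalings, the length and GC subtraction and leaving out genes without a symbol and those of mitochondria and ribosomal proteins. The calculations were tested on simulated data, which hold counting noise only. BLAST 2.17.0, R 4.3.3 with edgeR 4.0.16 (TMM factors on the recovered reads only) and Python 3.11.15 with scipy 1.17.1, numpy 2.4.6, pandas 2.3.3 and matplotlib 3.10.9 were used. Some results are not reported here.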

Additional observations from a re-analysis of the deposited data

How the results depend on the processing

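With 1 library per level, no library could be left out. No paired analysis was possible because each group has 1 sample and the result comes from no test. Of 162 alternative values for the 27 member ratios, 144 stayed inside the counting interval of the ratio as deposited. The pseudocounts and the TMM scaling changed the ratios little and moved 0 of 27 outside it. Scaling by total reads and by the upper quartile moved 4 each, and the length and GC subtraction moved 10 of 27. Scaling by total reads or by the upper quartile moved the stiff to soft ratio of Cxcl5 to 0.032 and 0.029, of Cxcl12 to 0.65 and 0.64, and of Cxcl14 to -0.089 and -0.092. It also moved Cxcl14 to -0.25 between intermediate and soft (upper quartile) and to 0.15 between stiff and intermediate (total reads). After subtraction of the length and GC trend, the stiff to soft ratio was -0.11 for Cxcl1, 1.003 for Cxcl3, 0.23 for Cxcl5, 0.58 for Cxcl12, -0.061 for Cxcl14 and -0.087 for Cx3cl1, the only change of sign. The subtraction gave 0.065 for Cxcl12 between intermediate and soft, and -0.27 for Cxcl5, 0.48 for Cxcl12 and -0.37 for Cx3cl1 between stiff and intermediate. Between stiff and intermediate 2 members instead of 3 were then higher by at least 0.5, Cxcl12 being lost; under the total read and upper quartile scalings Cxcl2 was lost instead, at 0.48 and 0.497.

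The counts of all genes called were 428 (stiff to soft), 20 (intermediate to soft) and 148 (stiff to intermediate), and they depended on the thresholds by construction. In that order they were 5827, 3646 and 3904 with no minimum mean, 822, 215 and 451 with a minimum of 10, and 238, 8 and 72 with a minimum of 200. At a ratio of at least 0.5 they were 1850, 546 and 1050, and at 2 they were 17, 1 and 8. Between intermediate and soft, 10 genes were called with a pseudocount of 10. Of 168 alternative values for the 24 list medians, 6 changed sign and none left the order-statistic interval of its median. That interval spans the spread of genes within a list, so staying inside it says little about stability. For the shedding and trimming list it ran from -0.93 to 0.61 between stiff and soft, while upper quartile scaling shifted the median gene by -0.058. Depth limits statements on Cxcl9, Cxcl10 and the receptors.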
